A study of Mus musculus with 12 samples.

Results

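The ERBB family comprises the epidermal growth factor receptor, its sister receptors and the growth factors that bind them. The account below covers 10 genes taken by name, 4 receptors (Egfr, Erbb2, Erbb3, Erbb4) and 6 ligands (Nrg1, Areg, Ereg, Hbegf, Tgfa, Btc), out of 55471 gene identifiers counted. They were measured by RNA-seq in 12 libraries of mouse melanoma cell lines, 3 libraries a line: MeVa2.1 with MeVa2.1.dOVA, and MeVa2.2 with MeVa2.2.dOVA. All lines carry the genotype label WT, were grown without treatment and derive per the labels from skin or a subcutaneous tumour; MeVa2.1.dOVA is described in the series title as immune-refractory. The labels do not explain dOVA, and each dOVA line was compared with the line whose name it extends. Nor do they say whether replicates were separate cultures, so the p-values measure the spread between these libraries, which may be technical.

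ERBB receptors are membrane tyrosine kinases that pair when a ligand binds and then activate the RAS-MAPK and PI3K-AKT pathways. EGFR binds amphiregulin (Areg), epiregulin (Ereg), heparin-binding EGF-like growth factor (Hbegf), betacellulin (Btc) and transforming growth factor alpha (Tgfa), whereas neuregulin 1 (Nrg1) binds ERBB3 and ERBB4. ERBB2 has no known soluble ligand and serves as a partner for the others, and ERBB3 has little kinase activity of its own and signals through its partner. The ligands are made as membrane-anchored precursors that ADAM proteases cut free. In melanoma, raised EGFR is known from dedifferentiated cells and from resistance to RAF inhibitors, and ERBB3 with neuregulin from adaptive responses to the same drugs.

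The libraries held 16181816 to 35627069 gene counts each, and levels are given as CPM, counts scaled to a library of 1000000 gene counts. In every line replicate 3 was the most deeply sequenced library, with at least 26291546 gene counts against at most 19204452 in replicates 1 and 2. Replicate 2 of MeVa2.1.dOVA and replicate 2 of MeVa2.2 lay apart from their lines in a principal component plot. Summed over 12 melanocyte markers the level was 9.07 to 63.6 CPM, and over 7 markers of dedifferentiated melanoma it was 4987 to 22245 CPM. Of 15 keratinocyte and epithelial markers, whose cell type also makes ERBB ligands, Krt1 and Lor had no counts in any library and the sum was 1.58 to 3.65 CPM. In such bulk samples fewer cells that express a gene and less RNA of it per cell cannot be told apart.

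The receptors summed to less than the ligands in each of the 12 libraries, and Erbb2 held most of the receptor signal. Per kilobase of exon, the mean CPM over the 12 libraries was 47.5 for Ereg, 25.8 for Areg and 15.7 for Hbegf. On that length scale Erbb2 (4.48), Btc (4.31) and Nrg1 (4.03) formed a middle group. Egfr (0.167) and Erbb3 (0.158) were lower still, Tgfa was at 0.00486, and Erbb4 had no counts. The scale divides by all annotated exons of a gene, and the order depends on it. In plain CPM the mean of Nrg1 was 41.7, above Areg (31.3), Erbb2 (23.3) and Btc (19.5). Of the summed length-scaled level of the ligands, Ereg made up 28.0% to 57.3% (median 49.6%), Areg 15.98% to 35.1%, Hbegf 11.6% to 22.9%, Nrg1 0.981% to 12.1% and Btc 1.94% to 10.1%. Erbb2 made up 83.7% to 98.8% of the receptors' sum (median 93.3%). The ligands' sum exceeded the receptors' sum 4.81-fold in replicate 3 of MeVa2.2.dOVA and 50.9-fold in replicate 1 of MeVa2.1, the lowest and highest of the 12 libraries.

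**Figure D1:**
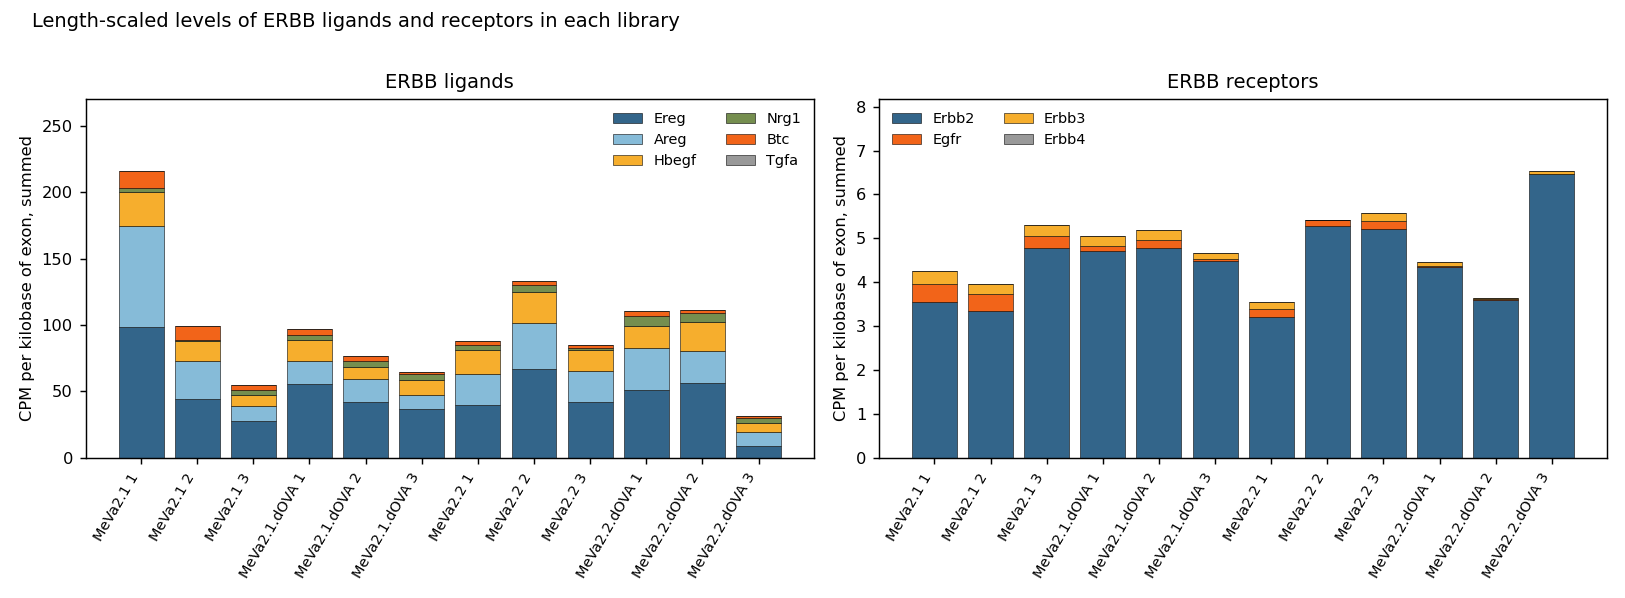
Length-scaled levels (CPM per kilobase of exon, summed) of the ERBB ligands (left) and receptors (right) in each library, with 1 bar per library named by line and replicate number and 1 colour per gene. Ereg, Areg and Hbegf make up most of every ligand bar and Erbb2 at least 83.7% of every receptor bar; the vertical scales of the panels differ.

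Egfr (ENSMUSG00000020122, chromosome 11, 16752203 to 16918158 on the plus strand of GRCm38) was the member with called differences between lines. In MeVa2.1 its level was 4.59, 4.53 and 3.23 CPM in replicates 1, 2 and 3. MeVa2.2 had 2.19, 1.42 and 2.17 CPM, and MeVa2.1.dOVA 1.42, 2.18 and 0.489 CPM. In MeVa2.2.dOVA it was 0.216, 0.213 and 0 CPM, which rests on 4, 4 and 0 counts, against 37, 27 and 57 counts in MeVa2.2. The 0 counts in replicate 3 allow a level of up to 0.0891 CPM in that library. Every MeVa2.1 library stood above every other library, every MeVa2.2.dOVA library stood below every other, and MeVa2.2 and MeVa2.1.dOVA overlapped. Between MeVa2.2.dOVA and MeVa2.2, 2423 of 13985 tested genes did not overlap, and between the dOVA lines 4193. The line means of Egfr were 4.12 ± 0.769, 1.93 ± 0.437, 1.36 ± 0.848 and 0.143 ± 0.124 CPM for MeVa2.1, MeVa2.2, MeVa2.1.dOVA and MeVa2.2.dOVA (SD, n = 3). Length-scaled, Egfr stood at 5.96% to 11.98% of Erbb2 in MeVa2.1 and at 0% to 0.524% of it in MeVa2.2.dOVA.

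The promoter of Egfr is shown here because its transcript differed between lines, together with those of Areg and Btc, ligands whose levels varied together across libraries (described further on). Each line gives the 250 bases before the gene's start, from the RefSeq promoter table on GRCm38.p6, where 6 of the 10 members had an entry. Capitals mark matches, on either strand, to 4 motifs that were searched: the Sp1 box GGGCGG, which reads CCGCCC on the other strand, the cyclic AMP response element TGACGTCA, the AP-1 element TGANTCA and the TATA box TATAAA. They lie at chr11:16751953-16752202 on the plus strand for Egfr, chr5:91139349-91139598 on the plus strand for Areg and chr5:91402995-91403244 on the minus strand for Btc.
Egfr: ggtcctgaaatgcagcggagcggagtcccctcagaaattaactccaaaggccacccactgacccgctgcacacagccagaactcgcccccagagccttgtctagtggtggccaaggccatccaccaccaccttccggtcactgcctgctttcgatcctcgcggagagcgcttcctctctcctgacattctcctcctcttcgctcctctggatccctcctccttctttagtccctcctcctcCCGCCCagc
Areg: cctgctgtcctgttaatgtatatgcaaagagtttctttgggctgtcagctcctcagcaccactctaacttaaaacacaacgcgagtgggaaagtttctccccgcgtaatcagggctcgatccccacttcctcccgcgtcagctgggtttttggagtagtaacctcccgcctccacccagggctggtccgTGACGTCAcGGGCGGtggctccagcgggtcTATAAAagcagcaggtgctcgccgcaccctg
Btc: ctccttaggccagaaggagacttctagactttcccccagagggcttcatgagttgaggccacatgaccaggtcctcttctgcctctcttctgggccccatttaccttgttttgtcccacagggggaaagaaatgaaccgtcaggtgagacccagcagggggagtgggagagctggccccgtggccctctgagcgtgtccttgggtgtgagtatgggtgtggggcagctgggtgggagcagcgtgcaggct
The Egfr window held a single Sp1 box, starting at -9 from the gene's start, and no TATA box. The Areg window held a cyclic AMP response element at -61, an Sp1 box at -52 and a TATA box at -31. The Btc window held none of the 4 motifs. Of 32851 promoter windows of the same length, 32.74% held the Sp1 box, 12.37% the TATA box, 6.749% the AP-1 element and 1.546% the cyclic AMP response element. These matches describe the sequence only, and overlapping matches to different motifs did not occur in these windows.

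Relative to MeVa2.2, Egfr was lower in MeVa2.2.dOVA, with a log2 fold change of -3.88 (SE 0.845, adjusted p = 0.0453, edgeR quasi-likelihood test adjusted over all 13985 tested genes). It was the only member called in that comparison, 1 of 8 tested, where 1.99% of all tested genes were called. Leaving out 1 library gave fold changes from -4.41 to -3.13, the last without replicate 3 of MeVa2.2.dOVA, where the call held. The call was lost without replicate 1, 2 or 3 of MeVa2.1 (adjusted p = 0.0675, 0.0681 and 0.0588, edgeR), replicate 1 of MeVa2.1.dOVA (0.0643), replicate 1 or 3 of MeVa2.2 (0.102 and 0.111) or replicate 1 or 2 of MeVa2.2.dOVA (0.107 and 0.120). In a fit to the 2 lines alone it was also lost (adjusted p = 0.158, edgeR). Libraries of the MeVa2.1 lines enter through the spread shared by all 4 lines. The DESeq2 Wald test gave -3.94 with an adjusted p of 2.73e-05.

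Egfr was higher in MeVa2.1.dOVA than in MeVa2.2.dOVA by 3.37 on the log2 scale (SE 0.846, adjusted p = 0.0256, edgeR quasi-likelihood test). Here too it was the only called member, 1 of 8 where 11.3% of all tested genes were called. This call was lost without replicate 1 or 2 of MeVa2.1.dOVA (3.33 and 2.84, adjusted p = 0.0643 and 0.0670, edgeR), without replicate 1 or 2 of MeVa2.2.dOVA (3.87 and 3.91, adjusted p = 0.0566 and 0.0531), and without both libraries that lay apart (2.85, adjusted p = 0.0634). Without replicate 3 of MeVa2.2.dOVA the call held at 2.62, the lowest value with 1 library left out. This comparison and the previous one share the MeVa2.2.dOVA libraries.

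Between MeVa2.1.dOVA and MeVa2.1, 2943 of 13985 tested genes did not overlap, and between MeVa2.1 and MeVa2.2 3280. Egfr did not overlap in these remaining comparisons of lines either, but missed the threshold. It was lower in each of the 3 same-numbered pairs of MeVa2.1.dOVA and MeVa2.1, with a log2 fold change of -1.62 (95% interval -3.13 to -0.11, adjusted p = 0.418, edgeR quasi-likelihood test). Between MeVa2.1 and MeVa2.2 the log2 fold change was 1.11 (interval -0.36 to 2.59, adjusted p = 0.443). The drop from parent to dOVA line in MeVa2.1 differed from that in MeVa2.2 by 2.26 on the log2 scale (interval -0.08 to 4.6, adjusted p = 0.614, edgeR), so the drops were not shown to differ in size.

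The sum of the dedifferentiated melanoma markers was 13191 to 22245 CPM in MeVa2.1, 10754 to 11295 in MeVa2.1.dOVA, 7267 to 7915 in MeVa2.2 and 4987 to 5171 in MeVa2.2.dOVA. Like Egfr it was highest in MeVa2.1 and lowest in MeVa2.2.dOVA, and none of the 7 markers was at 0 in all libraries. Unlike Egfr, which overlapped between MeVa2.1.dOVA and MeVa2.2, the sum was higher in MeVa2.1.dOVA than in MeVa2.2. Much of it was Fn1, with line means of 2699 to 10575 CPM, and Sparc, with 975 to 4197 CPM. Axl, also abundant, differed far less between lines. Its mean was lowest for MeVa2.2.dOVA, like that of Egfr, at 1323 ± 122 CPM, which was above Sparc there. Unlike Egfr, Axl had its highest mean with MeVa2.1.dOVA, at 1730 ± 170 CPM (SD, n = 3). The parents had Axl means of 1517 CPM (MeVa2.1) and 1496 CPM (MeVa2.2). Wnt5a was highest in MeVa2.2, at 2.26 to 4.22 CPM. Over 10 Schwann cell markers the sum was 108 to 176 CPM in MeVa2.1 and 19.4 to 78.8 CPM in MeVa2.2.dOVA, again with none at 0 throughout. Of 10 fibroblast markers, the dOVA line had the lower mean in 8 for the MeVa2.1 background and in 9 for the MeVa2.2 background. The mean of Thy1, for example, was 4.10 CPM in MeVa2.1 and 0.0412 CPM in its dOVA line, against 20.3 and 0.237 CPM for MeVa2.2 and its dOVA line. For Dcn the means were 3.42, 0.687, 1.62 and 0.288 CPM in the same order. Abundant collagen markers of the fibroblast list were mixed, and none had the higher mean in the dOVA line of both backgrounds. For the MeVa2.1 background, Col1a1 rose from a mean of 830 to 1007 CPM and Col1a2 from 1332 to 1703 CPM. Col3a1 fell there from 1096 to 495 CPM. For the MeVa2.2 background, Col1a1 fell from 868 to 472 CPM and Col1a2 from 2990 to 2138 CPM. Col3a1 there had a mean of 477 ± 673 CPM with the dOVA line and 446 ± 293 CPM with its parent (SD, n = 3). The sum of that list, which is mostly collagen transcripts, was 3030 to 4441 CPM in MeVa2.1, 2308 to 4717 in MeVa2.1.dOVA, 2867 to 6312 in MeVa2.2 and 1602 to 6136 in MeVa2.2.dOVA, and none of its genes was at 0 throughout. The part of these markers in the Egfr result was not tested.

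**Figure D2:**
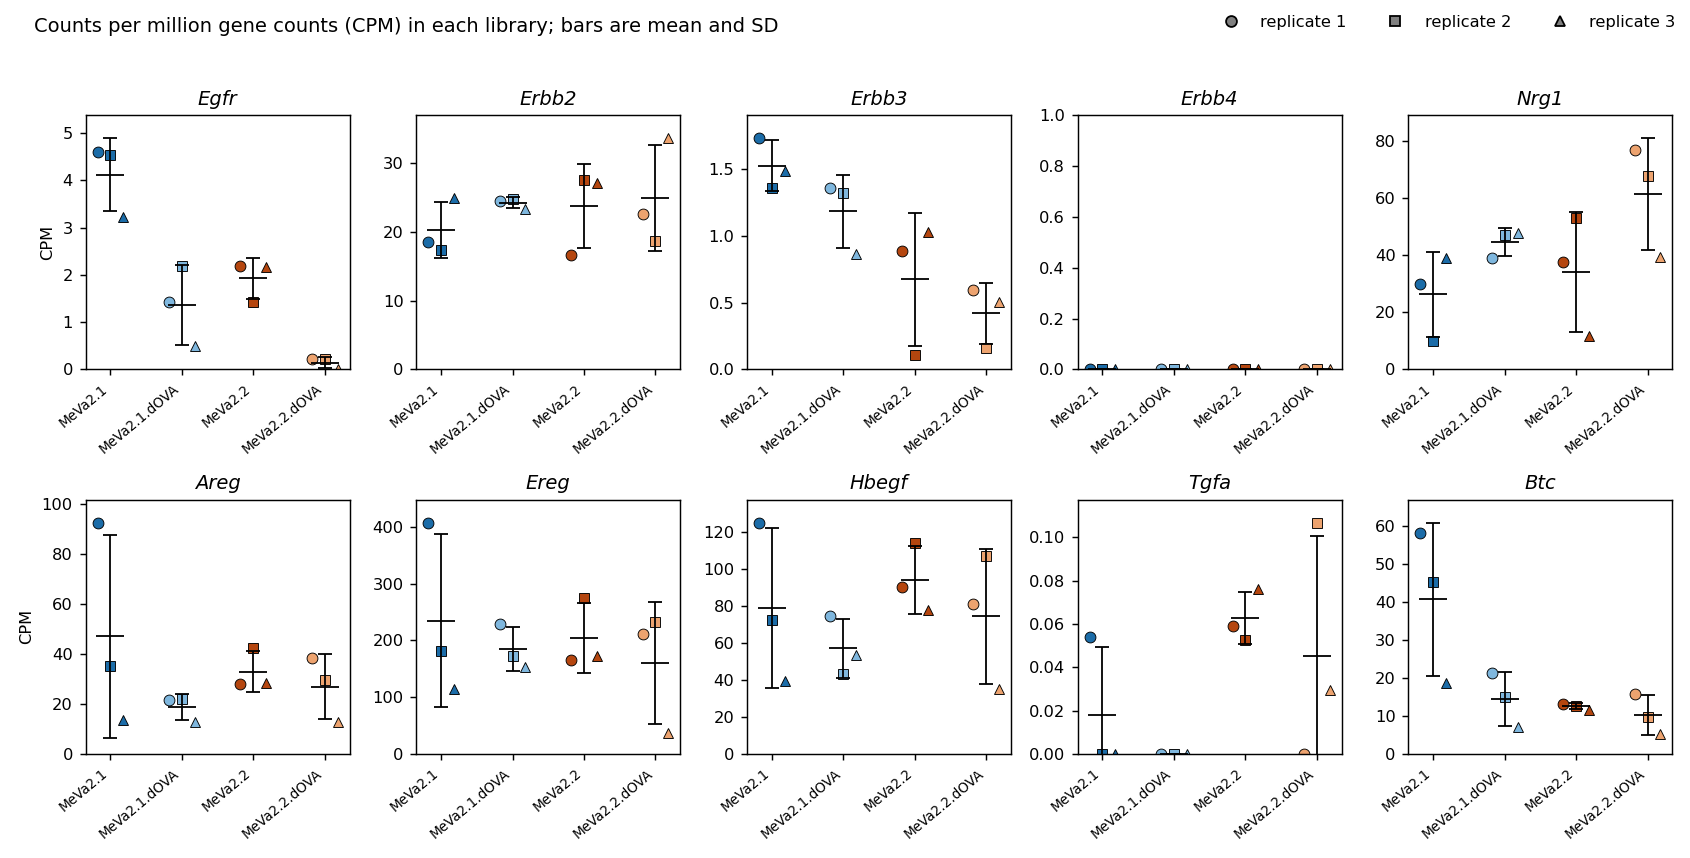
Levels of the 10 members (CPM, linear axes starting at 0, a scale of its own for each gene) in the 3 libraries of each line, where the symbol gives the replicate number and the bars the mean and SD. Egfr separates MeVa2.1 at the top and MeVa2.2.dOVA at the bottom, Erbb2 overlaps in all lines, and Erbb4 has no counts in any library.

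Erbb2 (ENSMUSG00000062312, chromosome 11, 98412470 to 98437716, plus strand), the shared dimer partner, had similar levels in all lines. It measured 18.5, 17.4 and 24.9 CPM in MeVa2.1 replicates 1, 2 and 3, 24.5, 24.9 and 23.4 in MeVa2.1.dOVA, 16.7, 27.5 and 27.1 in MeVa2.2 and 22.7, 18.7 and 33.6 in MeVa2.2.dOVA. Neighbouring lines overlapped throughout, and the line means ran from 20.3 ± 4.05 to 25.0 ± 7.73 CPM (SD, n = 3). The 95% interval of the log2 fold change was -0.30 to 0.81 for MeVa2.1.dOVA against MeVa2.1 and -0.53 to 0.58 for MeVa2.2.dOVA against MeVa2.2. It was -0.78 to 0.33 between the parents and -0.55 to 0.55 between the dOVA lines, so each interval left out a 2-fold change in either direction. Erbb2 shares 9 exonic bases with Mien1 on the opposite strand, and whether the counting used strand is not given in the sources used here.

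Erbb3 (ENSMUSG00000018166, chromosome 10, 128567523 to 128589652, minus strand), the kinase-poor receptor for neuregulin, was low throughout. Its level was 1.73, 1.35 and 1.49 CPM in replicates 1, 2 and 3 of MeVa2.1 and 1.36, 1.32 and 0.863 CPM in MeVa2.1.dOVA. In MeVa2.2 it was 0.888, 0.105 and 1.03 CPM and in MeVa2.2.dOVA 0.593, 0.160 and 0.505 CPM. All libraries of MeVa2.1 were above those of MeVa2.2, and all of MeVa2.1.dOVA above those of MeVa2.2.dOVA. Lines did not overlap for 3280 of 13985 tested genes in the first comparison and 4193 in the second. The log2 fold changes of Erbb3 were 1.18 (SE 0.627, adjusted p = 0.371) and 1.51 (SE 0.649, adjusted p = 0.161, edgeR quasi-likelihood test), neither of which passed. Erbb4 (ENSMUSG00000062209, chromosome 1, 68032186 to 69108059, minus strand), the other neuregulin receptor, had 0 counts in all 12 libraries, which allows a level of up to 0.0109 CPM by a limit of 3 counts over all of them (counting error only).

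Areg (ENSMUSG00000029378, chromosome 5, 91139599 to 91148432, plus strand), the gene of amphiregulin, varied widely within MeVa2.1 and MeVa2.2.dOVA and less within the other lines. It measured 92.3, 35.1 and 13.6 CPM in MeVa2.1 replicates 1, 2 and 3 and 21.5, 21.8 and 12.6 in MeVa2.1.dOVA. MeVa2.2 had 27.8, 42.2 and 28.5 CPM and MeVa2.2.dOVA 38.3, 29.4 and 12.7. The libraries of MeVa2.1 alone ran from 13.6 to 92.3 CPM, and all neighbouring lines overlapped. Its log2 fold change of -1.35 in MeVa2.1.dOVA against MeVa2.1 did not pass (SE 0.601, adjusted p = 0.432, edgeR quasi-likelihood test), and it was -0.42 without replicate 1 of MeVa2.1.

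Ereg (ENSMUSG00000029377, chromosome 5, 91074622 to 91093646, plus strand), the gene of epiregulin, had the highest mean level of the family both in CPM and per length. It measured 407, 182 and 115 CPM in MeVa2.1 replicates 1, 2 and 3, 229, 172 and 153 in MeVa2.1.dOVA, 165, 275 and 172 in MeVa2.2 and 211, 232 and 36.4 in MeVa2.2.dOVA. In replicate 3 of MeVa2.2.dOVA Nrg1 (39.5 CPM) was above Ereg, as was Areg per kilobase (10.5 against 8.81 CPM). All neighbouring lines overlapped, and every log2 fold change between lines lay between -0.36 and 0.21. Their 95% intervals reached from -1.68 to 1.53, so differences of 2-fold remain within them. Ereg shares 141 exonic bases with the antisense gene Gm19610, which had at most 88 counts in a library.

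Hbegf (ENSMUSG00000024486) encodes heparin-binding EGF-like growth factor. Its level was 125, 72.3 and 39.2 CPM in replicates 1, 2 and 3 of MeVa2.1, 74.2, 43.1 and 53.6 in MeVa2.1.dOVA, 89.9, 114 and 77.7 in MeVa2.2 and 81.1, 107 and 34.9 in MeVa2.2.dOVA. The lines overlapped, and the log2 fold change was between -0.49 and -0.24 in the 4 comparisons of lines, none of which passed.

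Btc (ENSMUSG00000082361, chromosome 5, 91357261 to 91402994, minus strand), the gene of betacellulin, was highest in MeVa2.1. Its level there was 58.1, 45.4 and 18.7 CPM in replicates 1, 2 and 3. In MeVa2.1.dOVA it was 21.2, 15.0 and 7.22 CPM, in MeVa2.2 13.2, 12.7 and 11.7 CPM and in MeVa2.2.dOVA 15.7, 9.76 and 5.17 CPM. All MeVa2.1 libraries were above those of MeVa2.2, while MeVa2.1.dOVA overlapped with its parent through replicate 3 of MeVa2.1 (18.7 CPM). Of 13985 tested genes, 3280 did not overlap between MeVa2.1 and MeVa2.2.

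The Btc difference between MeVa2.1 and MeVa2.2 was 1.72 on the log2 scale (SE 0.512, adjusted p = 0.0895, edgeR quasi-likelihood test), and 0 of 8 members were called there, against 4.48% of all tested genes. At an unadjusted p under 0.05 there was 1 member, and the DESeq2 Wald test called 1, Btc (1.72, adjusted p = 0.0145). With the replicate numbers as pairs, in a fit with a replicate block, Btc was called in this comparison (1.51, adjusted p = 0.00953, edgeR), as 1 of 8 members with 9.51% of all tested genes called. It was also called without replicate 3 of MeVa2.1 (2.08, adjusted p = 0.0423, edgeR) and without the filter on low counts (1.71, adjusted p = 0.0125).

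Relative to MeVa2.1, Btc was lower in MeVa2.1.dOVA in 3 of 3 same-numbered pairs, with a log2 fold change of -1.52 (SE 0.509, adjusted p = 0.291, edgeR quasi-likelihood test). None of the 8 tested members was called in this comparison, where 0.486% of all tested genes were. At an unadjusted p under 0.05 there were 3 members (Egfr, Areg and Btc), and the DESeq2 Wald test called 0. With the replicate block Btc was called (-1.49, adjusted p = 0.0240, edgeR), as 1 of 8 members beside 2.60% of all tested genes. Between MeVa2.2.dOVA and MeVa2.2 the Btc change was -0.32 (interval -1.42 to 0.78), and the difference between the pairs of lines was -1.20 (interval -2.76 to 0.35, adjusted p = 0.750, edgeR), so it was not shown to differ.

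Nrg1 (ENSMUSG00000062991, minus strand of chromosome 8, 31814551 to 32884029), a neuregulin that binds ERBB3 and ERBB4, was the only one of the 6 member ligands with a higher mean in both dOVA lines. It measured 29.8, 10.05 and 39.1 CPM in MeVa2.1 replicates 1, 2 and 3 and 39.0, 47.3 and 47.8 in MeVa2.1.dOVA. In MeVa2.2 it was at 37.7, 53.3 and 11.6 CPM and in MeVa2.2.dOVA at 77.2, 67.7 and 39.5. The dOVA line overlapped with its parent in both backgrounds. The log2 fold changes were 0.77 (SE 0.536, adjusted p = 0.646) and 0.83 (SE 0.536, adjusted p = 0.468, edgeR quasi-likelihood test), neither of which passed. Nrg1 shares 482 exonic bases with Gm26578 on the opposite strand, and Tgfa shares 118 with Gm43917, which had 0 counts. Tgfa (ENSMUSG00000029999, chromosome 6, 86195223 to 86275719, plus strand), another EGFR ligand, had 8 counts in total and 0 in 6 libraries, with none in MeVa2.1.dOVA, and was too low to test.

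**Figure D3:**
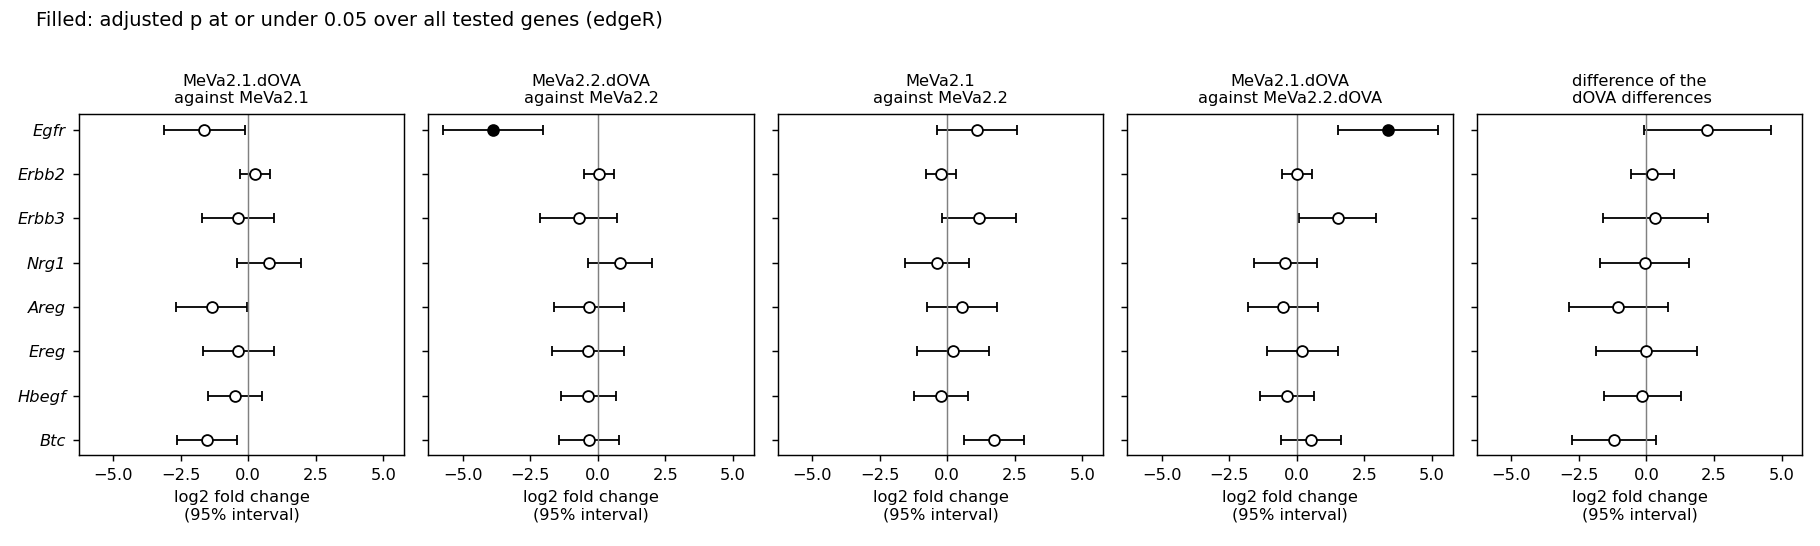
Log2 fold changes of the 8 tested members with 95% intervals (edgeR quasi-likelihood fit) in the 4 comparisons of lines and, in the last panel, the difference between the dOVA-to-parent changes; filled points have an adjusted p at or under 0.05. Egfr is filled in MeVa2.2.dOVA against MeVa2.2 (-3.88) and in MeVa2.1.dOVA against MeVa2.2.dOVA (3.37), and no other point is filled.

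In the difference of the dOVA-to-parent changes 0 of 8 members were called (0.0858% of all tested genes were), 0 had an unadjusted p under 0.05 in edgeR, and the DESeq2 Wald test called 0. Over the 8 tested members the median log2 fold change was -0.43 for MeVa2.1.dOVA against MeVa2.1, -0.33 for MeVa2.2.dOVA against MeVa2.2, 0.37 between the parents and 0.10 between the dOVA lines. The medians of all tested genes were 0.0023, -0.023, -0.019 and 0.0052 in the same order. Of the 8 members, 6 had a negative fold change in each dOVA line against its parent, the exceptions being Erbb2 and Nrg1 in both. That count does not hold when 1 library is left out, which turned the sign of Ereg and Hbegf in MeVa2.1.dOVA and of Erbb2, Areg, Ereg, Hbegf and Btc in MeVa2.2.dOVA.

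The EGFR ligands Areg, Ereg, Hbegf and Btc varied together from library to library within a line. Of the 16 pairs of ligand and line, the lowest library was replicate 3 in 13, and the highest was replicate 1 in 10, replicate 2 in 6 and replicate 3 in 0. The mean log2 deviation of these 4 ligands from their line means was -1.05 in replicate 3 of MeVa2.1, -0.43 in that of MeVa2.1.dOVA, -0.19 in that of MeVa2.2 and -1.18 in that of MeVa2.2.dOVA. It was highest in replicate 1 of MeVa2.1, at 0.96. Across the 12 libraries, the correlation of deviations from the line mean was 0.938 for Ereg with Hbegf, 0.883 for Areg with Btc, 0.869 for Areg with Ereg, 0.867 for Areg with Hbegf, 0.782 for Ereg with Btc and 0.766 for Hbegf with Btc. The receptor Egfr also went with them, at 0.779 with Btc, 0.650 with Ereg, 0.608 with Areg and 0.493 with Hbegf. The Egfr values are limited by its low counts, which were 4, 4 and 0 in MeVa2.2.dOVA. Other genes described below also followed the pattern, which was thus not particular to the 4 ligands. Nrg1 correlated with these ligands at 0.00677 to 0.348, Erbb3 at -0.315 to 0.114 and Erbb2 at -0.575 to -0.396. These values share libraries, replicate number and sequencing depth and are given as a description.

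**Figure D4:**
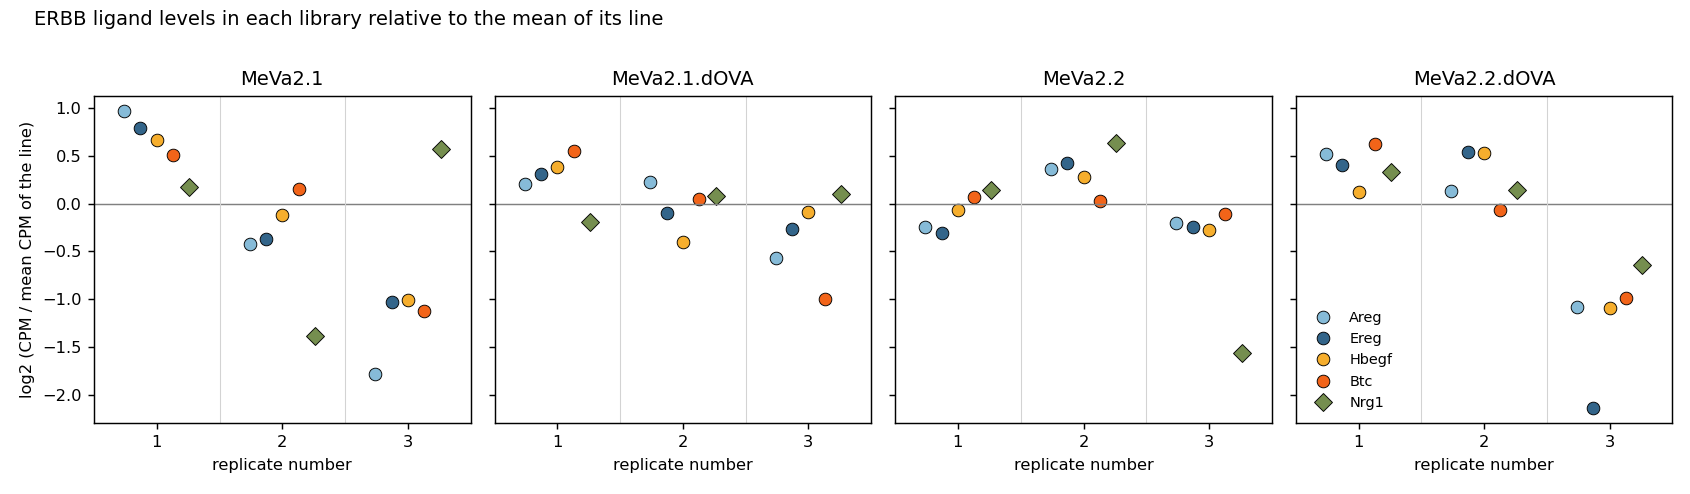
Level of 5 ligands in each library as the log2 ratio of its CPM to the mean CPM of the line, by replicate number. Areg, Ereg, Hbegf and Btc (circles) lie together and lowest in replicate 3 in most cases, with a smaller spread in MeVa2.2, whereas Nrg1 (diamonds) lies apart from them, for example in replicate 3 of MeVa2.1.

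Replicate 3 was also the deepest library of each line, and the deposited file names carry a run of digits that same-numbered libraries of all lines share. The part of depth or of handling by replicate number in the ligand levels was not tested. Areg, Ereg and Btc lie close together on chromosome 5 with Epgn, the gene of epigen, in a stretch of 375531 bases (91027464 to 91402994 on GRCm38). Between them the annotation places no other protein-coding gene. Hbegf, which varied with them, lies on another chromosome.

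Several genes that EGFR signalling is known to induce followed the same library pattern. The highest correlations of the list with the mean deviation of the 4 ligands, within lines and over 12 libraries, were 0.955 for Ier3, an immediate-early gene, 0.954 for Plaur, the urokinase receptor, 0.912 for Fos, a subunit of AP-1, and 0.896 for Dusp5, a phosphatase of ERK. Plaur, for example, measured 119, 88.8 and 43.1 CPM in MeVa2.1 replicates 1, 2 and 3 and 48.5, 60.8 and 15.0 CPM in MeVa2.2.dOVA. Dusp5 was at 46.6, 31.5 and 16.5 CPM in MeVa2.1 and at 44.4, 57.4 and 7.72 CPM in MeVa2.2.dOVA. Over the 33 genes of that list, which leaves out the members, the median correlation was 0.449 and 29 were positive. Over all 13985 tested genes the median was 0.0022, 7009 were positive and the range was -0.981 to 0.961. Spry1, a feedback inhibitor, was the lowest of the list at -0.641. These values too share libraries, replicate number and sequencing depth and are given as a description. Whether ligand level had a part in them was not tested.

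Of the other ERBB ligands, Nrg2, a neuregulin, was higher in the MeVa2.1 lines than in the MeVa2.2 lines. It measured 14.4, 13.9 and 27.9 CPM in MeVa2.1 replicates 1, 2 and 3, 17.6, 12.8 and 28.6 in MeVa2.1.dOVA, 6.27, 2.16 and 1.48 in MeVa2.2 and 4.58, 2.35 and 6.38 in MeVa2.2.dOVA, with no overlap between the backgrounds. Of 13985 tested genes, 3280 did not overlap between the parents and 4193 between the dOVA lines. The log2 fold change of Nrg2 was 2.53 between the parents (SE 0.555, adjusted p = 0.0262) and 2.19 between the dOVA lines (SE 0.544, adjusted p = 0.0246, edgeR quasi-likelihood test). The first call was lost without replicate 2 or 3 of MeVa2.1 (adjusted p = 0.0565 and 0.0793) or of MeVa2.2 (0.0978 and 0.0721, edgeR), in a fit to the 2 lines alone (0.0685) and without both libraries that lay apart (0.0925). It was at 3.36 without replicate 1 of MeVa2.2. The second was lost without replicate 1 or 3 of MeVa2.1.dOVA (adjusted p = 0.0591 and 0.0921) or replicate 1 or 2 of MeVa2.2.dOVA (0.0874 and 0.109, edgeR). Egf, epidermal growth factor itself, was at 0.320 to 1.29 CPM and passed in no comparison. Epgn did not exceed 0.324 CPM, Nrg4 did not exceed 0.0594 CPM and Nrg3 had 0 counts in all libraries, so of this list of 5 genes 2 were tested and 1 passed in each comparison of the backgrounds, where 4.48% (parents) and 11.3% (dOVA lines) of all tested genes did.

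Among 15 genes of ligand processing, 12 were tested and none passed between either dOVA line and its parent or between the parents. Adam10, the main sheddase of betacellulin, was at 248 to 610 CPM, and Adam17, the main sheddase of amphiregulin, epiregulin and heparin-binding EGF-like growth factor, at 85.0 to 177 CPM. Between the dOVA lines 3 passed, all higher in MeVa2.1.dOVA, where 11.3% of all tested genes passed in either direction. They were Timp3, a secreted inhibitor of ADAM17 (log2 fold change 2.71, SE 0.562, adjusted p = 0.0104), Adam15 (1.21, SE 0.254, adjusted p = 0.0112) and Adam12 (3.94, SE 0.978, adjusted p = 0.0245, edgeR quasi-likelihood test). Timp3 measured 354, 289 and 1094 CPM in MeVa2.1.dOVA replicates 1, 2 and 3 and 61.5, 59.5 and 154 in MeVa2.2.dOVA. Its call was lost without replicate 1 or 2 of MeVa2.2.dOVA (adjusted p = 0.0571 and 0.0572, edgeR), and it held at 1.85 without replicate 3 of MeVa2.1.dOVA. Adam12 lost its call without replicate 1 or 3 of MeVa2.1.dOVA (0.0591 and 0.0778) or replicate 1 or 2 of MeVa2.2.dOVA (0.0965 and 0.0993, edgeR). With the replicate block 5 passed, 4 higher and 1 lower, beside 22.0% of all tested genes.

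Of 22 genes that attenuate ERBB receptors, 20 were tested. Ptprj, a receptor phosphatase, passed between the parents and between the dOVA lines, 1 gene of the list in each, beside 4.48% and 11.3% of all tested genes. It measured 70.9, 80.0 and 107 CPM in MeVa2.1 replicates 1, 2 and 3, 98.3, 70.6 and 84.7 in MeVa2.1.dOVA, 48.8, 32.6 and 54.0 in MeVa2.2 and 48.6, 41.7 and 43.4 in MeVa2.2.dOVA. The log2 fold changes were 0.94 (SE 0.213, adjusted p = 0.0301) and 0.95 (SE 0.213, adjusted p = 0.0153, edgeR quasi-likelihood test). The first call was lost without replicate 2 or 3 of MeVa2.1 (adjusted p = 0.0882 and 0.0960), replicate 3 of MeVa2.1.dOVA (0.0505) or replicate 1 or 2 of MeVa2.2 (0.0826 and 0.0987), in a fit to the 2 lines alone (0.1004) and without both libraries that lay apart (0.0811), and the second without replicate 1 or 3 of MeVa2.1.dOVA (0.0729 and 0.05005) or replicate 2 of MeVa2.2.dOVA (0.0656, edgeR). With the replicate block 3 genes of the list passed between the dOVA lines, 2 higher and 1 lower, beside 22.0% of all tested genes. The feedback inhibitor Errfi1, at 110 to 508 CPM, and the receptor-degrading Lrig1, at 133 to 281 CPM, passed in no comparison.

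Of 41 adaptors and signalling genes, 39 were tested, and none passed between a dOVA line and its parent. Shc2, an adaptor that binds phosphorylated receptors, was higher in the MeVa2.1 lines. It measured 28.6, 34.5 and 25.3 CPM in MeVa2.1 replicates 1, 2 and 3 and 7.10, 6.53 and 5.36 in MeVa2.2, and 51.8, 29.6 and 39.7 in MeVa2.1.dOVA against 5.45, 2.67 and 2.73 in MeVa2.2.dOVA. Its log2 fold changes were 2.24 (SE 0.316, adjusted p = 0.00236) and 3.51 (SE 0.334, adjusted p = 8.74e-05, edgeR quasi-likelihood test), and both calls held when any single library was left out. Between the parents Shc2 was the only gene of the list to pass, 1 of 39 where 4.48% of all tested genes passed. With the replicate block 6 passed, 5 higher and 1 lower, beside 9.51% of all tested genes.

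Between the dOVA lines 6 of these signalling genes passed, 3 higher and 3 lower in MeVa2.1.dOVA, beside 11.3% of all tested genes. With the replicate block 9 passed, 5 higher and 4 lower, beside 22.0% of all tested genes. Besides Shc2, the largest changes were in Plcg2, a phospholipase C (-3.72, SE 0.884), Braf, a kinase of the MAPK pathway (-1.06, SE 0.260), and Mapk3, which encodes ERK1 (0.80, SE 0.224). Their edgeR adjusted p-values were 0.02, 0.0227 and 0.0405. The Plcg2 call was lost without replicate 2 or 3 of MeVa2.1.dOVA (0.0639 and 0.0828) or both libraries that lay apart (0.0564), and it held at -2.96 without replicate 3 of MeVa2.2.dOVA and at -4.49 without replicate 1 of MeVa2.1.dOVA. That of Braf was lost without replicate 1 or 3 of MeVa2.1.dOVA (0.0824 and 0.0778) or replicate 1 or 2 of MeVa2.2.dOVA (0.0689 and 0.0832). For Mapk3 it was lost in 8 of 12 such fits: without any MeVa2.1 replicate (0.0603, 0.0573 and 0.0633 for replicates 1, 2 and 3), replicate 1 or 3 of MeVa2.1.dOVA (0.169 and 0.136), replicate 1 of MeVa2.2 (0.0649) or replicate 1 or 2 of MeVa2.2.dOVA (0.145 and 0.1803). It was also lost in a fit to the 2 lines alone (0.106).

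Of the 33 genes that EGFR signalling induces, all were tested. Between MeVa2.1.dOVA and MeVa2.1 none passed. Between MeVa2.2.dOVA and MeVa2.2, Etv5, an ETS transcription factor downstream of ERK, was the gene that passed, 1 of 33 beside 1.99% of all tested genes (-1.03, SE 0.200, adjusted p = 0.0302, edgeR quasi-likelihood test). It measured 135, 99.96 and 137 CPM in MeVa2.2 replicates 1, 2 and 3 and 69.4, 58.6 and 56.9 in MeVa2.2.dOVA. The call was lost without replicate 2 of MeVa2.1 (adjusted p = 0.0503), replicate 1 of MeVa2.1.dOVA (0.0533), replicate 1 or 3 of MeVa2.2 (0.0942 and 0.108) or replicate 1, 2 or 3 of MeVa2.2.dOVA (0.0789, 0.127 and 0.0523), and in a fit to the 2 lines alone (0.102, edgeR).

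Spry1 was higher in MeVa2.1 than in MeVa2.2 (3.45, SE 0.764, adjusted p = 0.0274) and in MeVa2.1.dOVA than in MeVa2.2.dOVA (3.57, SE 0.773, adjusted p = 0.0130, edgeR quasi-likelihood test). It measured 37.0, 32.1 and 72.0 CPM in MeVa2.1 replicates 1, 2 and 3, 18.7, 6.20 and 54.9 in MeVa2.1.dOVA, 4.50, 4.48 and 3.96 in MeVa2.2 and 1.40, 0.747 and 4.66 in MeVa2.2.dOVA. The first call was lost without any of the 6 libraries compared (adjusted p = 0.0514 to 0.102) and the second without replicate 3 of MeVa2.1.dOVA (2.46, adjusted p = 0.0529) or replicate 1 or 2 of MeVa2.2.dOVA (0.0669 and 0.0573, edgeR) and in a fit to the 2 lines alone (0.0592). Without replicate 3 of MeVa2.2.dOVA it held at 4.63. Between the dOVA lines, Phlda1 (1.08, adjusted p = 0.0252) and Ccnd1, the gene of cyclin D1 (0.83, adjusted p = 0.0134), were also higher in MeVa2.1.dOVA, and the cytokine gene Lif was lower (-3.71, SE 0.653, adjusted p = 0.00427, edgeR), at -2.90 without replicate 2 of MeVa2.2.dOVA. Without single libraries of the dOVA lines the Phlda1 call was lost in 4 fits, those without replicate 2 or 3 of MeVa2.1.dOVA (0.0670 and 0.0776) or replicate 1 or 2 of MeVa2.2.dOVA (0.1002 and 0.0795), and the Ccnd1 call without replicate 2 of MeVa2.2.dOVA (0.0558). Thus 4 of the 33 genes passed between the dOVA lines and 1 between the parents, near the 11.3% and 4.48% of all tested genes. With the replicate block these were 7, of which 6 higher and 1 lower, and 3, of which 2 higher and 1 lower, beside 22.0% and 9.51% of all tested genes.

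The genes whose level was most like that of Egfr over the 12 libraries, among 8917 genes whose log2 CPM averaged 3 or more, were Nid1, which encodes the basement membrane protein nidogen (r = 0.937), Ptgfr, a prostaglandin receptor (r = 0.922), and Sema4b, a semaphorin (r = 0.916). Nid1 was at 659.9 ± 36.7, 195 ± 40.9, 204 ± 27.4 and 72.8 ± 21.0 CPM, MeVa2.1 and its dOVA line first and the MeVa2.2 pair next (SD, n = 3). Ptgfr was at 124 ± 64.3, 55.8 ± 35.4, 38.2 ± 8.92 and 4.96 ± 3.01 CPM. Sema4b differed far less in size, at 100 ± 16.6, 69.2 ± 9.03, 94.0 ± 3.84 and 55.5 ± 8.17 CPM in the same order. The correlations compare libraries that share a line and are given as a description.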

How the data were processed

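RNA was sequenced from 12 untreated libraries, 3 for each of 4 lines. Per the labels' protocols, column-purified RNA was made into stranded mRNA libraries. The submitters' processing notes name the GRCm38 build, the tools STAR (2.6.0c) and HTSeq (0.10.0) and, in version 1.30.1, DESeq2; the annotation and the strand setting of the counting are not given in the sources used here. The deposited values are whole-number counts per gene, not normalized. The 5 tally lines of each file, 35.8% to 40.0% of its reads, entered neither library sizes nor tests. Gene counts were 16181816 to 35627069 per library, and no replicates agreed within counting noise.

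Symbols came from the gene name table, positions and exon lengths from GENCODE on GRCm38, and promoters from RefSeq. CPM is the count scaled to 1000000 gene counts of the library, and per-length values divide it by the union of exons. Counts were fitted in R 4.3.3 with edgeR 4.0.16 (filterByExpr, TMM, glmQLFit, glmQLFTest), with a mean per line over all 12 libraries and 8 residual degrees of freedom. p-values were adjusted by Benjamini-Hochberg over 13985 genes at 0.05. The SE is the one implied by the F statistic. The test was checked on simulated data in which only well-counted genes were changed. That check does not cover genes with counts as low as those of Egfr.

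All 10 members were named, and of each pathway list every gene that passed if these were at most 4, otherwise the 4 largest. The 3 genes most like Egfr were taken by Pearson correlation of log2 CPM (prior count 2). The members and lists were chosen with earlier results of these data known. Marker lists not given in the report were immune (7 of 19 markers at 0 in all libraries, sum 3.52 to 23.4 CPM), endothelial (2 of 8 at 0, 0.427 to 3.33 CPM) and mitochondrial mRNAs as a sign of RNA quality (10009 to 15394 CPM). Their part in any result, and that of the fibroblast list, was not tested.

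Replicate numbers come from the titles, which do not say what they mark. Deviations of same-numbered libraries correlated at 0.503, 0.488 and 0.534 between MeVa2.1 and MeVa2.1.dOVA, at 0.429, 0.405 and 0.328 between the parents and at 0.105, 0.516 and 0.416 between the dOVA lines. All exceed 0.1, the limit used for treating them as pairs, so results that change with the replicate block are given beside the main ones. Alternatives were DESeq2 size factors, the DESeq2 1.42.0 Wald test, no filter on low counts, the block, the 2 compared lines alone and leaving out each library. Leaving out both libraries that lay apart was added after seeing the data.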

Additional observations from a re-analysis of the deposited data

How the results depend on the processing

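Members called were 0, 1, 0, 1 and 0 for MeVa2.1.dOVA against MeVa2.1, MeVa2.2.dOVA against MeVa2.2, the parents, the dOVA lines and the difference of the dOVA differences. In the same order, genes called numbered 68, 278, 627, 1574 and 12 over all genes, 385, 951, 1224, 2370 and 272 by the DESeq2 Wald test, and 364, 1084, 1330, 3079 and 118 with the replicate block. Without the low-count filter they were 272, 729 and 969 in the first 3 and 161 in the last. In fits to the 2 lines alone they were 25, 5, 397 and 1025, and without both libraries that lay apart 2 and 693 in the first 2. Leaving out 1 library gave ranges of 1 to 83, 20 to 447, 279 to 775, 796 to 2578 and 0 to 13.

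Members called became 1 (Btc) for MeVa2.1.dOVA against MeVa2.1 with the replicate block, and 1 (Btc) between the parents with the block, with the DESeq2 Wald test and with no filter. They became 0 for MeVa2.2.dOVA against MeVa2.2 in the fit to the 2 lines alone, and 0 between the dOVA lines in that fit, which gave no value for Egfr, and without both libraries that lay apart. Leaving out 1 library gave 0 to 1 in the middle 3 comparisons and 0 in the others. Same-numbered libraries of MeVa2.2.dOVA and MeVa2.2 correlated at 0.082, 0.64 and 0.521 and were not treated as paired; with the block Egfr there was at -4.08 (adjusted p = 0.0124, edgeR). In that comparison the block also made Timp3 of ligand processing pass (lower) and Lrig2 of receptor attenuation (higher). Of the signalling genes Braf, Grb2 and Sos1 passed as higher and Nck2 as lower, and of the EGFR-induced genes Etv4, Plaur and Ccnd1 passed as lower beside Etv5. Apart from Btc, the block ended no call of a member or of a pathway gene that the report names as passing, and made no other member pass.

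These directions turned, each in a difference that did not pass. Nrg1 between the parents was at 0.12 without both libraries that lay apart. Erbb2 between the dOVA lines was at 0.026 with the block, and in the difference of differences Ereg was at 0.013 with no filter and 0.45 with the block and Hbegf at 0.12 with the block. Leaving out 1 library turned Ereg (-0.69 to 0.29) and Hbegf (-0.81 to 0.0011) for MeVa2.1.dOVA against MeVa2.1. It turned Erbb2 (-0.20 to 0.19), Areg (-0.64 to 0.044), Ereg (-0.76 to 0.12), Hbegf (-0.74 to 0.0087) and Btc (-0.75 to 0.022) for MeVa2.2.dOVA against MeVa2.2. Between the parents it turned Areg (-0.40 to 0.98), Ereg (-0.43 to 0.55), Hbegf (-0.72 to 0.096) and Nrg1 (-0.78 to 0.11). Between the dOVA lines it turned Erbb2 (-0.15 to 0.23), Ereg (-0.27 to 0.62) and Hbegf (-0.73 to 0.023), and in the difference of differences Erbb3 (-0.17 to 0.83), Ereg (-0.48 to 0.64), Hbegf (-0.49 to 0.34) and Nrg1 (-0.55 to 0.35). The cause was not tested. Depth limits the precision of Egfr in MeVa2.2.dOVA, of Erbb3 and of Tgfa, which rest on few counts.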
